A study of Mus musculus with 4 samples.

Results

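Of the 10 serotonin genes described here, Htr1b differed most between young and old mouse intestine: the array signal of its region was 47.1-fold higher in the 32-month sample than in the 3-month sample. The region of Htr3a was 2.60-fold lower at 32 months, but its call was lost under 2 of 11 alternative ways of processing. That of Htr1b held under all 11. The other 5 genes with a measured region passed the calling rule in neither direction, although every usable position of Htr1a was higher at 32 months. The 10 genes encode 9 serotonin receptors (Htr1a, Htr1b, Htr1d, Htr2a, Htr2b, Htr3a, Htr4, Htr6 and Htr7) and Tph1, an enzyme of serotonin synthesis. They were found by the gene name of each array position, among 16671 genes named on the arrays. The list of names was drawn up with array results already known, so the values below are a description of these genes and carry no test.

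Most of the body's serotonin is made in the gut by enterochromaffin cells, epithelial endocrine cells in which Tph1 carries out the rate-limiting hydroxylation of tryptophan. Released serotonin acts on receptors of enteric neurons, vagal sensory endings, smooth muscle and epithelium, and it regulates peristalsis, secretion and the sensation of nausea. All of its receptors are coupled to G proteins except the Htr3 receptor, which is an ion channel. Methylation of cytosines in CG dinucleotides at a promoter is often, though not always, associated with low transcription of the gene.

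The study compared DNA methylation in the intestine of young and old mice. C57BL/6 mice, an inbred laboratory strain, supplied the DNA at ages of 3 and 32 months, with no treatment or genetic change named in the labels. The DNA of 3-month intestine carried the green dye Cy3 and that of 32-month intestine the red dye Cy5 on each of 2 custom Agilent arrays, one for chromosomes 1 to 8 and one for chromosomes 9 to 19, X and Y. There was 1 sample per age and array and no exchange of dyes, so dye and age cannot be told apart and there is no replicate check. No source used here gives the sex, how many animals a sample pooled or the step that selected DNA by its methylation, and values are therefore reported as signal. A header of the first array holds the abbreviation RMCA, which is left unexplained. Intestine is a mixture of cell types, and a change in their proportions cannot be told apart from a change within cells. As the samples are DNA, marker genes cannot check the tissue.

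Each array held 41545 or 41577 positions, each an oligonucleotide of known sequence, and between 70.1% and 72.5% of them were well above background in a given sample. No position was saturated. The processed signals are arbitrary units, with medians over usable positions of 621 and 616 at 3 and 32 months for the first array and 301 and 302 for the second. A position was usable when it was not marked as an outlier and was well above background in at least 1 of the samples compared. Its log2 ratio of 32 over 3 months was centred on the median of its array, so the folds below are slightly different from the quotient of the printed signals. The medians subtracted were 0.0044 for the first array and -0.14 for the second. A region joined positions of 1 gene at most 1000 bp apart, and its value was the median log2 ratio of at least 2 usable positions. A region was called higher when this median was at least 1 and all its usable positions were above 0, and lower in the mirrored case. Precision is limited by the number of arrays, and an SD below is a spread over positions of a region, not over animals.

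The 10 genes held 45 positions, of which the files annotate 27 as promoter and 18 as inside the gene. Of these, 32 were usable: 30 were well above background in both samples, 1 (of Tph1) only at 3 months and 1 (of Htr2b) only at 32 months. The other 13 were well above background in neither sample. Htr1d, Htr2b, Htr6 and Tph1 lay on the first array and the other 6 genes on the second. Coordinates below are those of the files, whose genome build is not given in the sources used here.

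The oligonucleotides below belong to the 3 genes with the largest differences, and they are printed 5′ to 3′ as deposited, with each CG in capitals. Both Htr1b positions lie inside the gene, and those of Htr1a and Htr3a are annotated as promoter. The strand of the oligonucleotides is not given, except that the second Htr1a sequence reads in the direction of the gene. The number in each name is the first base in the files.
Htr1b chromosome 9 81429040: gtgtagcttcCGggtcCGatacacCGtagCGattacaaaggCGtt
Htr1b chromosome 9 81429163: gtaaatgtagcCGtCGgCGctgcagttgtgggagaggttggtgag
Htr1a chromosome 13 106563419: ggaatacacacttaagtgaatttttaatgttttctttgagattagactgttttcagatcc
Htr1a chromosome 13 106564015: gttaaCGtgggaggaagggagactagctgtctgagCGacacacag
Htr3a chromosome 9 48663333: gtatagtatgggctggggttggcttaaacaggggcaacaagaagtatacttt
Htr3a chromosome 9 48663458: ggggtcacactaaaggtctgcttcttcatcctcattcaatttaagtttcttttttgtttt

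The Htr1b oligonucleotides inside the gene hold 5 and 3 CG dinucleotides, and both Htr3a ones printed hold 0. This is not a division by direction, as both Htr1b promoter positions, not printed, were higher at 32 months and hold 0. The Htr1a position 106563419, also higher at 32 months, holds 0. Of the Htr3a positions not printed, 48663078 was lower at 32 months and holds 1, and 48662679 inside the gene holds 0. Over all positions of the 10 genes the median number of CG was 0, and 64.4% held none, against 46.9% of all 82851 positions placed on a chromosome. The printed letters are those of the oligonucleotide on the array, and the length of the DNA that hybridised to it is not given in the sources used here.

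**Figure D1:**
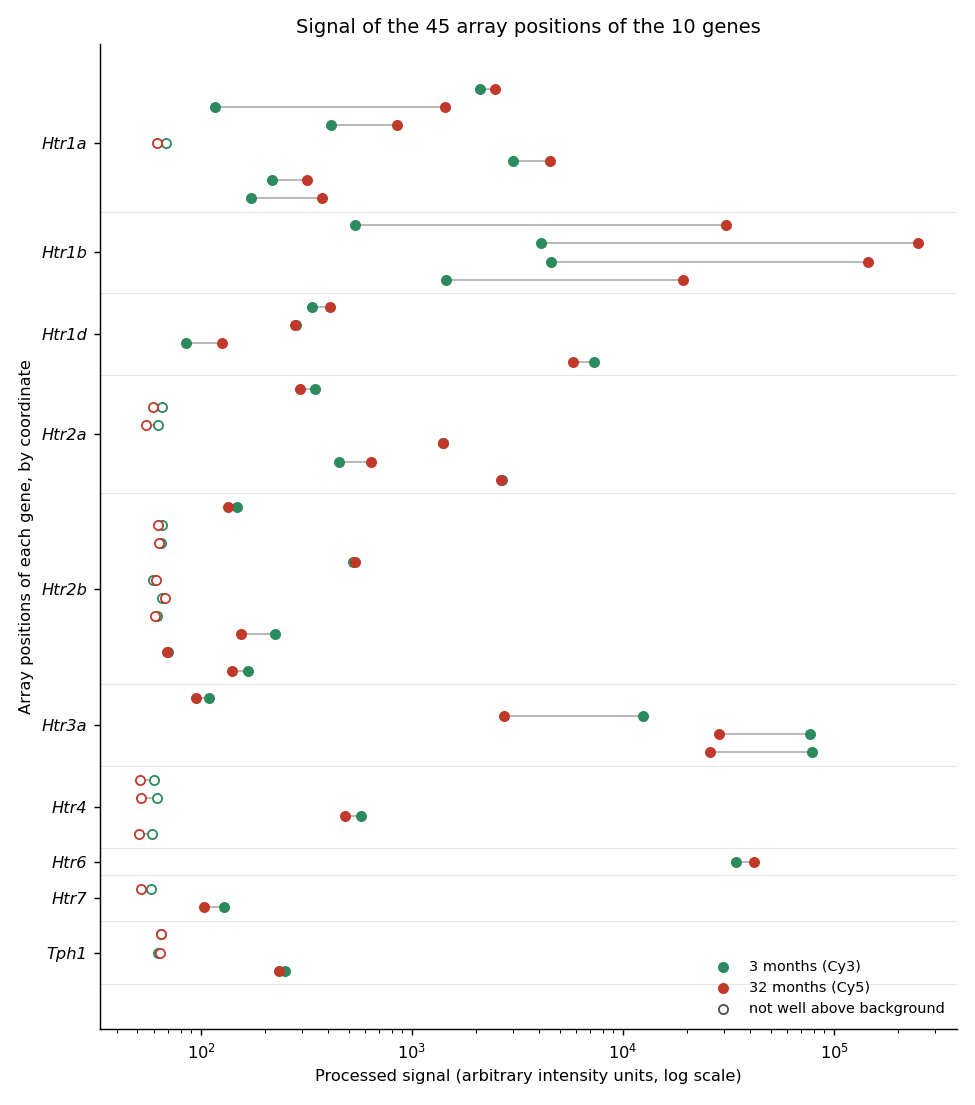
Processed signal (arbitrary intensity units, log axis) of each of the 45 positions of the 10 genes at 3 months (green) and 32 months (red), with positions of a gene ordered by coordinate. Open circles mark samples in which a position was not well above background. All 4 Htr1b positions lie far to the right at 32 months, and 3 of the 4 Htr3a positions lie to the left.

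Htr1b encodes an inhibitory G protein-coupled receptor found on nerve terminals, where it limits the release of serotonin and of other transmitters. Its region, chr9:81429040-81429690, held 4 positions, and all were well above background at both ages. Inside the gene, the position with 5 CG dinucleotides measured 536 at 3 months and 30800 at 32 months. The neighbouring position inside the gene measured 4070 and 251000. Going on into the promoter, signals were 4530 and 144000, then 1450 and 19200 at the position farthest from the gene body. The 32-month sample was therefore higher at each of the 4 positions.

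As ratios, the Htr1b positions were 63.3-fold and 67.9-fold higher at 32 months inside the gene, and 35.0-fold and 14.6-fold higher where the files annotate promoter. Both ratios inside the gene thus lay above both in the promoter. The median log2 ratio was 5.56 ± 1.03 (SD over 4 positions), and only 2 of the 15352 measured regions had a higher one. The difference was visible in the scanner's mean signals before any scaling, which were 90.0 in the 3-month and 4860 in the 32-month channel at the first position, then 265 and 36600, 315 and 25600, and 136 and 2960. Local background at these spots was 42.0 to 46.0 in the 3-month channel and 72.0 to 84.0 in the 32-month channel. Htr1b was called higher under each of 11 alternative ways of processing, with medians between 5.27 and 5.98.

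Htr1a encodes the inhibitory receptor that also serves as the autoreceptor on the cell bodies of serotonin neurons. Its region, chr13:106563194-106564411, held 7 positions, of which 6 were usable. The largest difference was at the promoter position 106563419, printed above, which measured 116 at 3 months and 1440 at 32 months, 13.7-fold higher in the processed signals. The scanner's mean signals there were 66.7 and 354, and its log2 ratio was 3.77 in the processed signals and 1.73 with normexp background correction. A second promoter position measured 412 and 850, and the position farthest inside the gene measured 172 and 375, which were 2.27-fold and 2.40-fold higher. Their log2 ratios were 1.18 and 1.26 in the processed signals, and 0.86 and 0.44 with normexp. Differences at the other usable positions were under 2-fold in the processed signals. With normexp the log2 ratios of these others, by coordinate, were 0.97, 1.42 and 0.40. Array positions of like brightness (mean log2 signal within 0.5) had median normexp ratios of 0.77, 0.86 and 0.11 there. In the processed signals those medians were 0.16, 0.14 and 0.10, so part of the normexp values is shared with other positions of that brightness. The first and last usable promoter positions measured 2090 and 2460, and 3010 and 4510. The remaining position inside the gene measured 216 and 318. All 6 usable positions were thus higher at 32 months, by unequal amounts.

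The median log2 ratio of Htr1a was 0.95 ± 1.24 (SD over 6 positions), just short of the threshold of 1, and the region was not called. With the mean over positions in place of the median it was 1.34 and was called. Under the other alternatives it was between 0.72 and 0.97 and was not called. The SD exceeded the median because a single position, 106563419, carried a log2 ratio of 3.77, while the other 5 lay between 0.37 and 1.26.

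Htr1d, another inhibitory receptor of nerve terminals, had 4 usable positions in its region chr4:135694620-135695657. They measured 336 and 408, 281 and 280, and 85.1 and 126 in the promoter, and 7250 and 5780 inside the gene, at 3 and 32 months respectively. Higher and lower positions were mixed, and the median log2 ratio was 0.13 ± 0.38 (SD). Alternatives gave values from -0.0095 to 0.28. The negative value arose when only positions within 500 bp were joined, which changed the positions summarised. All other alternatives gave positive values.

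**Figure D2:**
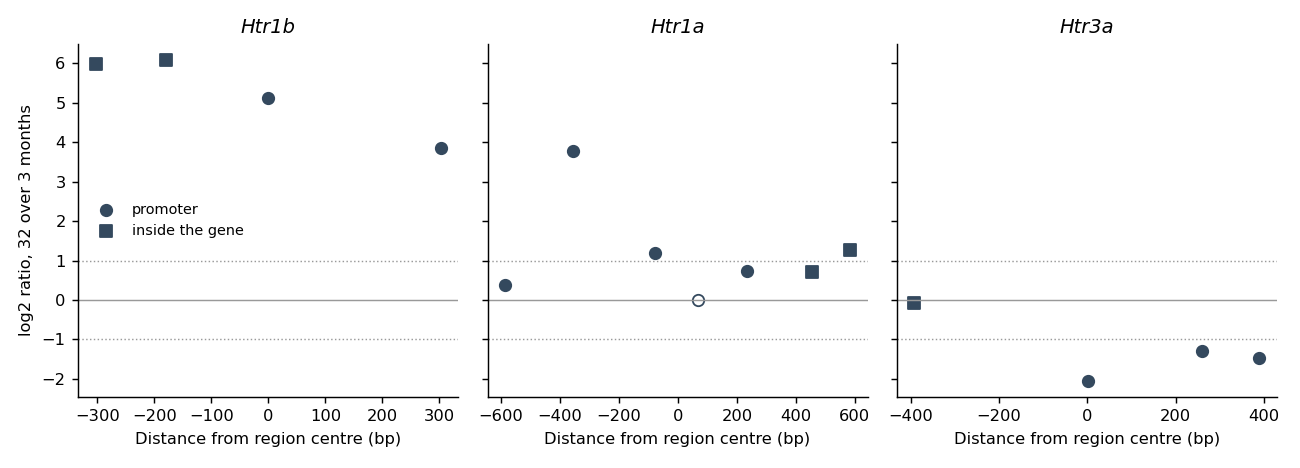
Log2 ratio of 32 over 3 months (vertical axis) at each position of Htr1b, Htr1a and Htr3a, against distance in bp from the centre of the region. Circles are promoter positions, squares lie inside the gene, the open circle was not usable, and dotted lines mark 2-fold differences. Ratios of Htr1b decline from inside the gene to the promoter, Htr1a has 1 position far above the others, and the lower ratios of Htr3a lie in the promoter.

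Htr2a encodes an excitatory receptor that contracts smooth muscle and is also found on platelets. In its region chr14:73374098-73375225, 4 of 6 positions were usable. They measured 348 and 293, and 1400 and 1400 in the promoter, then 450 and 636, and 2670 and 2630 inside the gene. Signals at the ages were close at 3 of these, and 1 inside the gene was 1.56-fold higher at 32 months. The median log2 ratio was 0.13 ± 0.32 (SD). It ranged from -0.013 without centring to 0.54 with normexp background correction. With normexp the usable positions, by coordinate, were at 0.13, 0.64, 0.44 and 0.84. Positions of like brightness on the array had medians of 0.16, 0.65, 0.33 and 0.81 under that correction.

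Htr2b, the related receptor known for its part in the heart valves and in contraction of the stomach fundus, held the most positions of the 10 genes. In its region chr1:87941835-87944076, 5 of 10 positions were usable. Inside the gene these measured 148 and 134, and 527 and 537. In the promoter they measured 225 and 154, 70.0 and 69.3, and 167 and 140. Of these, 4 were lower at 32 months, none by 2-fold, and the median log2 ratio was -0.15 ± 0.23 (SD over 5 positions). It stayed below 0 under all 11 alternatives, between -0.20 and -0.033.

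Htr3a encodes the subunit that is required for the Htr3 ion channel, through which serotonin excites enteric and vagal sensory neurons. Its region, chr9:48662679-48663517, had 4 usable positions. Those annotated as promoter measured 12400 at 3 months and 2720 at 32 months, 76500 and 28500, and 78700 and 25800. The position inside the gene measured 109 and 94.2. The promoter positions were therefore bright at both ages and lower at 32 months by 4.14-fold, 2.44-fold and 2.77-fold, whereas the position inside the gene differed by 1.05-fold.

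The median log2 ratio of Htr3a was -1.38 ± 0.83 (SD over 4 positions), and 81 measured regions had a lower one. The call changed with how signals were scaled. The scanner's mean signals of the promoter positions were close at both ages, at 644 and 514, 4680 and 5350, and 4630 and 4870. With normexp background correction of these mean signals the median was -0.44 and the region was not called. Under that correction, positions of like brightness on the array (mean log2 signal within 0.5) had median ratios of 0.91, 1.10 and 1.15, against 0.12, 0.19 and 0.25 in the processed signals, and the promoter positions of Htr3a lay below these medians on both scales. With loess on brightness the median was -1.43, but the position inside the gene moved to 0.01 and the call was lost. Htr3a was called lower under the other 9 alternatives, with medians from -1.52 to -1.22.

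The receptors that act through stimulatory G proteins, Htr4, Htr6 and Htr7, had 1 usable position each and so no measured region. Htr4, which promotes peristalsis, measured 570 at 3 months and 482 at 32 months at 1 of its 4 positions, chr18:62466411-62466466, inside the gene. Htr6, a receptor studied mainly in brain, measured 34400 and 41800 at its only position, chr4:138347082-138347126, in the promoter. Htr7, which relaxes smooth muscle, measured 128 and 103 at 1 of 2 promoter positions, chr19:36123432-36123491. Their log2 ratios were -0.10, 0.28 and -0.17, all under 2-fold.

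Tph1 had 2 usable promoter positions of 3, in the region chr7:46540788-46541377. One measured 250 at 3 months and 234 at 32 months. The other measured 64.4 and 64.3, and only the 3-month sample was well above background there. Signals of the ages were nearly equal, and the median log2 ratio was -0.053 ± 0.066 (SD over 2 positions). Over the alternatives it lay between -0.062 and -0.0066.

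Ordered by median log2 ratio, the measured regions were Htr1b, Htr1a, Htr1d, Htr2a, Tph1, Htr2b and Htr3a. The lowest position of Htr1b, at 3.87, lay above the highest position of Htr1a, at 3.77. The positions of Htr1a, from 0.37 upwards, overlapped those of Htr1d, which reached 0.56, and of Htr2a, which reached 0.64. Positions of Htr1d, Htr2a, Tph1 and Htr2b overlapped with their neighbours in this order. Those of Htr3a, from -2.05 to -0.071, overlapped the range of Htr2b, from -0.55 to 0.023.

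Among the 7 measured regions of the 10 genes, 1 was called higher and 1 lower. Of all 15352 measured regions, 309 were called higher, which is 2.01%, and 97 were called lower, which is 0.632%. By single positions, 7 of the 32 usable ones were at least 2-fold higher at 32 months, 4 of Htr1b and 3 of Htr1a, and over both arrays 6.35% of 62411 usable positions were. At least 2-fold lower were 3 positions, all of Htr3a, and 3.35% of all usable positions. The genes were chosen with such results known, so nothing is read from these shares. The median over the 7 regions was 0.13, against 0.015 over all measured regions, and it lay between -0.013 and 0.13 under the alternatives.

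**Figure D3:**
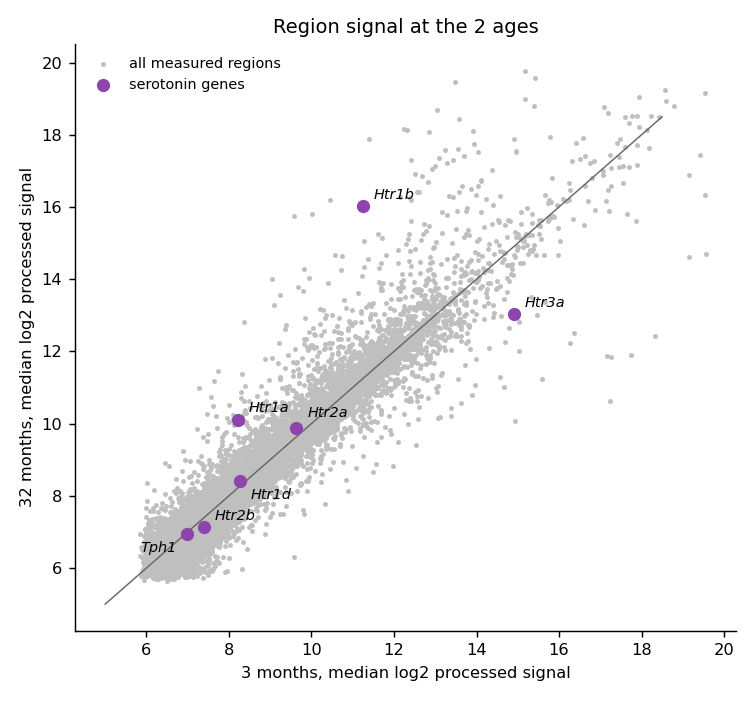
Median log2 processed signal of each measured region at 3 months (horizontal axis) and 32 months (vertical axis), with 15352 regions in grey, 7 regions of the serotonin genes in purple and a line of equal signal. Htr1b lies far above the line and Htr3a below it. Distances from the line are between medians of signals and can differ from the median of the ratios, as for Htr1a.

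Other genes of serotonin signalling and metabolism were not called. This list held 27 further genes, among them receptors, enzymes and transporters. Of the 27, 25 were found by name, and Asmt and Ddc are not analysed here. Of the 23 measured regions, 0 were called higher and 0 lower, also under each of the 11 alternatives. Their median was 0.0029, with 12 above 0 and 11 below.

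Tph2, the enzyme that takes the place of Tph1 in neurons, had the highest median of this list, 0.51 ± 0.84 (SD over 5 positions). One Tph2 promoter position measured 1270 at 3 months and 3780 at 32 months, 3.28-fold higher, but another had a log2 ratio of -0.58. The largest difference at a usable position of the list was in the promoter of Pts, an enzyme that makes the cofactor of Tph1 and Tph2, with signals of 1170 and 5120, 4.82-fold higher at 32 months, in a region with a median of 0.15 ± 1.13 (SD over 5 positions). Slc22a3, a low-affinity transporter of monoamines, had the lowest median, -0.44 ± 0.59 (SD over 5 positions). With normexp background correction Slc22a3 turned to 0.04 and Tph2 moved to 0.048. Slc6a4, the serotonin transporter that clears serotonin from the extracellular space, had a median of 0.33 ± 0.53 (SD over 4 positions). One Slc6a4 promoter position measured 1980 at 3 months and 3810 at 32 months, 2.12-fold higher. The other Slc6a4 positions had log2 ratios from -0.19 to 0.41. Maoa, which breaks serotonin down, had a median of 0.064 ± 0.83 (SD over 6 positions). Htr2c, Maoa and Maob are on the X chromosome, whose 508 measured regions had a median of -0.070, against 0.089 for the autosomal regions of the second array.

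**Figure D4:**
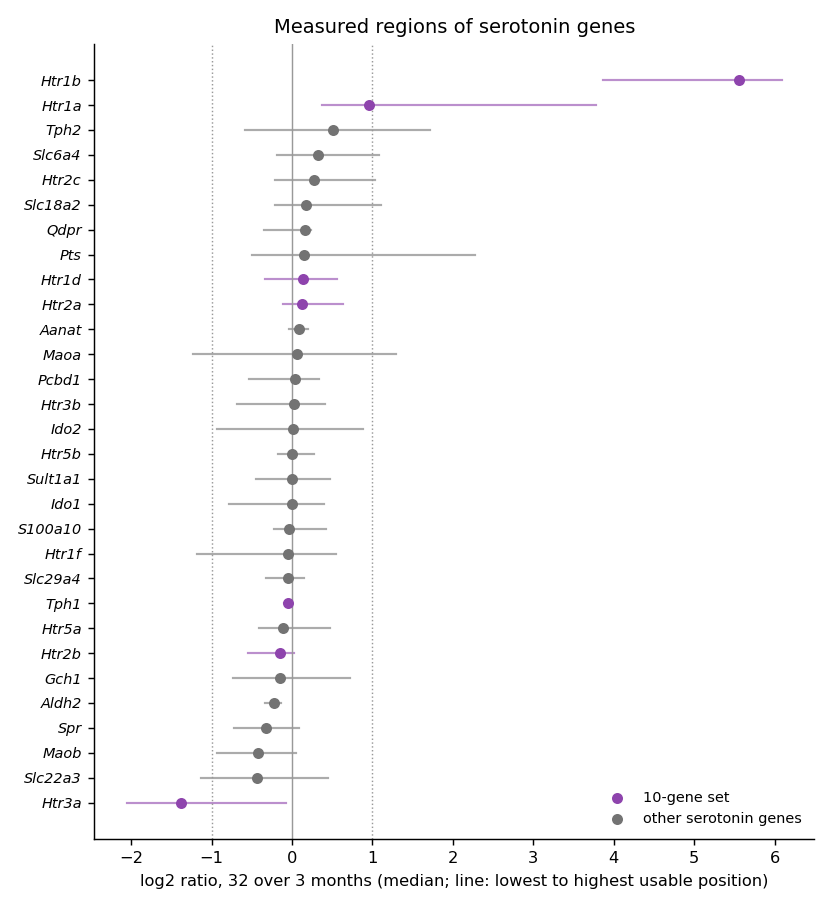
Median log2 ratio of 32 over 3 months (points) and the range over usable positions (lines) for the measured regions of the 10 genes (purple) and of the other serotonin genes (grey). Dotted lines mark 2-fold differences. Htr1b, at 5.56, Htr1a, at 0.95, and Htr3a, at -1.38, lie beyond the grey points, which run from -0.44 to 0.51.

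A list of genes that specify or mark enterochromaffin cells and serotonin neurons had 18 measured regions. Of these, 1 was called higher and 0 lower, and their median was 0.079. The called region lay inside Lmx1b, a transcription factor needed for serotonin neurons, at chr2:33462354-33462541, with a median of 1.58 ± 0.19 (SD over 2 positions). The single position of the promoter that Lmx1b shares with C130021I20Rik, chr2:33463162-33463208, had a log2 ratio of 0.0081. The region inside the gene was called under all 11 alternatives, with medians from 1.58 to 1.94. The lowest median of the list was that of Fev, a transcription factor of the same neurons and of enterochromaffin cells, at -0.32 ± 0.70 (SD over 5 positions), which turned to 0.098 with the mean over positions and to 0.093 with normexp.

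Receptors, enzymes and transporters for other biogenic amines, with receptors for acetylcholine, had 26 measured regions, 0 called in either direction, with a median of 0.077. Slc6a2, the noradrenaline transporter, had the highest median, 1.35 ± 1.29 (SD over 13 positions), but its lowest position was at -0.31, so it did not meet the calling rule. The lowest median was that of Adra1a, an adrenergic receptor, at -0.43 ± 0.81 (SD over 3 positions), which moved to -0.0009 with normexp.

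No neighbouring region of Htr1b or Htr3a on chromosome 9 was called in either direction. Around Htr1b the nearest measured regions were Mei4, at a distance of 229.8 kb, with a median of 0.65 ± 0.59 (SD over 2 positions), and Impg1, at 1166 kb, with -0.34 ± 0.65 (SD over 4 positions). Further out, Irak1bp1 had 0.20, Hmgn3 -0.11, Myo6 0.0027 and Tmem30a -0.44. Htr3b, which encodes a partner subunit of the Htr3a channel, lay 53.1 kb from Htr3a and had a median of 0.02 ± 0.54 (SD over 4 positions). Beyond it, Usp28 had 1.09 and Zw10 -0.74. On the other side Nnmt had 0.59, Rbm7 0.45 and Rexo2 0.19.

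Among 11754 regions with at least 3 usable positions, those nearest to Htr1b in their pair of signals were found by the Euclidean distance of median log2 signal at 3 and at 32 months. They were Ptprm (distance 0.81), Slc18a3 (0.85), Adamts19 (0.94), Alx4 (0.96) and Crabp1 (1.00). Slc18a3, the vesicular acetylcholine transporter, had median signals of 3110 at 3 months and 39100 at 32 months. All but Alx4 were called higher, with median log2 ratios from 2.98 to 4.46, below that of Htr1b. The nearest to Htr3a was Nrk on the X chromosome (0.064), followed by Dok7 (0.32), Bambi (0.49), Meltf (0.49) and a region shared by Dph1 and Rtn4rl1 (0.53). Of these, Dok7, with median signals of 24700 and 8070, and the shared region were called lower. The measure uses the signals themselves, so that these regions differ in the same direction follows from how they were chosen.

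Sequence of the promoters was taken from RefSeq, assembly GRCm38.p6, as windows from 250 bases before to 50 bases after a start site. The table held 11 windows for 8 of the genes; Htr3a and Htr4 were not matched. File coordinates differ from this assembly, so array positions were placed by their sequence, and 5 positions were found in a window: 2 of Htr1a and 1 each of Htr1d, Htr2a and Htr2b. The Htr1a window is shown because the data bear on it at 2 places, with the 250 bases before the start (GRCm38.p6, plus strand, chr13:105443443-105443692) and each CG in capitals.
Htr1a upstream: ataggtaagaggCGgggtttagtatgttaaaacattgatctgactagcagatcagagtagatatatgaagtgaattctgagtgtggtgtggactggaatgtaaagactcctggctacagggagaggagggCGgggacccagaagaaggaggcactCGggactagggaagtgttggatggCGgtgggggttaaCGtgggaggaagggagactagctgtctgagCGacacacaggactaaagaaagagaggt

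The first of these Htr1a positions starts 235 bases before the gene's start and was well above background in neither sample, at 68.6 and 61.8. The second starts 63 bases before the start, holds 2 of the 6 CG dinucleotides of the stretch and measured 3010 at 3 months and 4510 at 32 months. The Htr1a position with the 13.7-fold difference lay outside this window.

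Over all 32851 windows of 300 bases the median number of CG was 7. The Htr1b window held 11, that of Htr1a 7, that of Htr2a 6 and that of Htr2b 4. Htr1d, Htr6 and Tph1 have 2 windows each, with 7 and 28, 10 and 29, and 5 and 19 CG. Htr7 had the most, 46, which places it at the 98.5th percentile of all windows. The methylation-sensitive restriction site CCCGGG, read on both strands since it is its own reverse complement, occurred in 1 of the 11 windows, of Htr6, and in 13.5% of all windows. CCGG, which also lies within CCCGGG, occurred in 52.8% of all windows and GCGC in 47.1%. The Htr1b window held 1 CCGG and 3 GCGC, but no array position of Htr1b was found in that window. These matches describe the letters of the windows only.

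**Figure D5:**
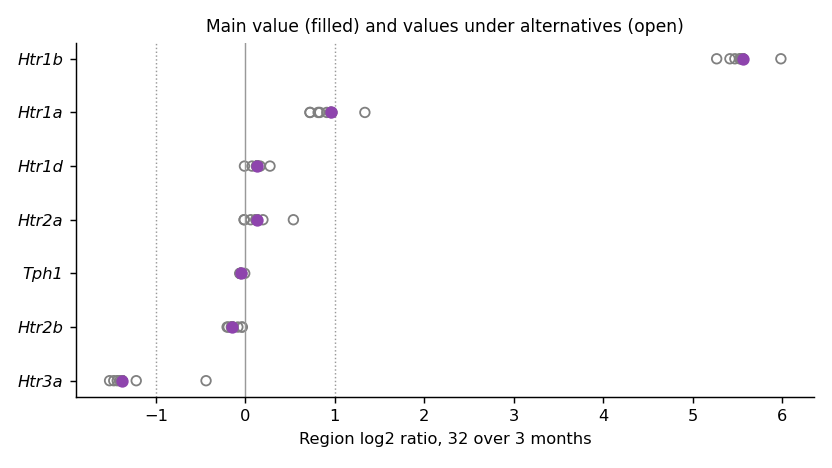
Median log2 ratio of 32 over 3 months for the 7 measured regions as reported (filled) and under up to 11 alternative ways of processing (open). Htr1b stays between 5.27 and 5.98, Htr1a crosses 1 under 1 alternative, and Htr3a moves to -0.44 under 1.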

How the data were processed

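Genomic DNA of mouse intestine at 2 ages was hybridised to 2 two-colour arrays (4 sample records). The submitters' processing notes name Agilent Feature Extraction 9.1.3.1 for image analysis. The main values are the deposited processed intensity, from which per the file headers background and array trends had been removed and whose dyes had been balanced linearly, with no lowess. An uncentred alternative took the deposited log10 ratio (red over green). The scanner files of the dyes of an array were identical, and each channel was used once. The value table equalled the processed signals in 100% of spots. Of the columns of sample values, 0 were unmatched.

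Ratios, regions and calls were computed with Python 3.11.15 and pandas 2.3.3, and normexp (offset 50) with limma 3.58.1 in R 4.3.3. Control spots and outliers were left out (11 and 28 positions marked). No test was made, as there is 1 sample per age and array. Members and lists were chosen with earlier results of these data known. Named genes are the 10 genes, called regions and the highest and lowest of each list, 3 neighbouring regions on each side of a called member and the 5 nearest by signal. Slc6a4, Maoa and Pts, the Tph2 positions and Htr3b were described after their values were seen. The 11 alternatives covered centring, loess (span 0.3), normexp, filters on dim positions, array blocks, the mean, gaps of 500 and 2000 bp, the value table and the farthest position left out.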

Additional observations from a re-analysis of the deposited data

How the results depend on the processing

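Of the serotonin gene regions, 1 was called higher under 10 of the 11 alternatives, and 2 with the mean over positions, where Htr1a was added at 1.34. The number called lower was 1 under 9 alternatives and 0 with loess on brightness (Htr3a at -1.43, with the position inside the gene at 0.01) and 0 with normexp (Htr3a at -0.44). The median of the 7 regions turned negative without centring (-0.013), with loess (-0.012), with dim positions kept (-0.0066) and with a gap of 500 bp (-0.0095). Over all measured regions 309 were called higher and 97 lower, so 76.1% of calls were higher. That share was 64.4% without centring (242 and 134) and 95.5% with normexp (422 and 20), where the median of all regions was 0.11. Leaving out the farthest position of each region gave 427 and 156, and keeping dim positions gave 246 and 56. The value table repeats the reported values. No paired analysis was possible because each group holds 1 sample and no test was made. Signal over background left 13 of the 45 positions unusable, and the absence of replicates and of a dye exchange limits every value.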
